A study of Homo sapiens with 4 samples.

Results

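The transcripts described here are those of 10 genes of polyamine synthesis and breakdown, taken by name from a table of 58735 genes: ODC1, SRM, SMS and AMD1 for synthesis, OAZ1, OAZ2 and AZIN1 for antizyme control, and SAT1, PAOX and SMOX for catabolism. All 10 were found and all 10 passed the filter on low values, which left 13079 genes. They were measured by RNA sequencing in H1299, an established human non-small cell lung cancer line. The groups are 2 libraries of untreated wild-type cells and 2 libraries of untreated H1299 cells labelled TTC28 knockout, edited with CRISPR/Cas9. The sources used here do not say whether the knockout cells are 1 clone or a pool, or whether the replicates came from separate cultures, so p-values measure only the spread between these libraries.

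Polyamines are small, positively charged metabolites that bind nucleic acids and are needed for cell growth. Ornithine decarboxylase (ODC1) makes putrescine, and S-adenosylmethionine decarboxylase (AMD1) makes the aminopropyl donor that spermidine synthase (SRM) and spermine synthase (SMS) add to putrescine and to spermidine. Antizymes (OAZ1, OAZ2) bind ornithine decarboxylase and send it to the proteasome, and antizyme inhibitor (AZIN1), a relative of the enzyme without its activity, binds antizyme in its place. The acetyltransferase SAT1 and the oxidase PAOX act in turn to take spermine and spermidine apart, while SMOX oxidises spermine directly. Much of the control of ODC1, AMD1, SAT1 and the antizymes is exerted on translation and protein stability, which transcript counts do not measure.

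Library totals lay between 25120500 and 28885443 counts. TTC28 was at 4.88 and 5.44 FPKM (fragments for each kilobase of the gene, relative to library size) in the wild-type libraries and at 2.96 and 2.99 FPKM in the knockout libraries, so that its transcript was lower but still present. The epithelial keratin KRT18 was at 138 to 170 FPKM in the 4 libraries and the mesenchymal marker VIM at 300.0 to 366 FPKM, whereas CDH1 had at most 1 count in any library, the alveolar marker SFTPC and the leukocyte marker CD3E had 0 counts in every library, and the lung lineage factor NKX2-1 had at most 5. Mitochondrially encoded genes took 5.87% to 6.07% of counts in wild-type and 8.61% to 10.16% in knockout libraries. With totals taken without those genes, 9 of the 10 polyamine genes had the same call, SMS being the exception.

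Expression was compared with edgeR's quasi-likelihood test and Benjamini-Hochberg adjustment over the 13079 tested genes, and a gene is said to have risen or fallen where the adjusted p was under 0.05. By that rule 50.3% of all tested genes differed, 25.1% with a rise and 25.2% with a fall in knockout libraries. Of the 10 polyamine genes, 2 rose (SAT1 and OAZ2), 4 fell (ODC1, SRM, SMOX and AMD1) and 4 did not pass, so that the share called, 60.0%, is not far from that of all genes. Falls of at least 2-fold were found for 2.26% of all tested genes and for 2 of the 10, ODC1 and SRM. SRM was near that line, at a log2 fold change of -1.01. With a filter of 5 FPKM in 2 or more libraries SRM was at -0.99, short of 2-fold. Without knockout replicate 1 it was at -0.97, also short of it. The median log2 fold change of the 10 was -0.08, against 0.00 over all tested genes. The FPKM ranges of wild type and knockout were separate for 8 of the 10 genes, and for 75.5% of all tested genes.

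**Figure D1:**
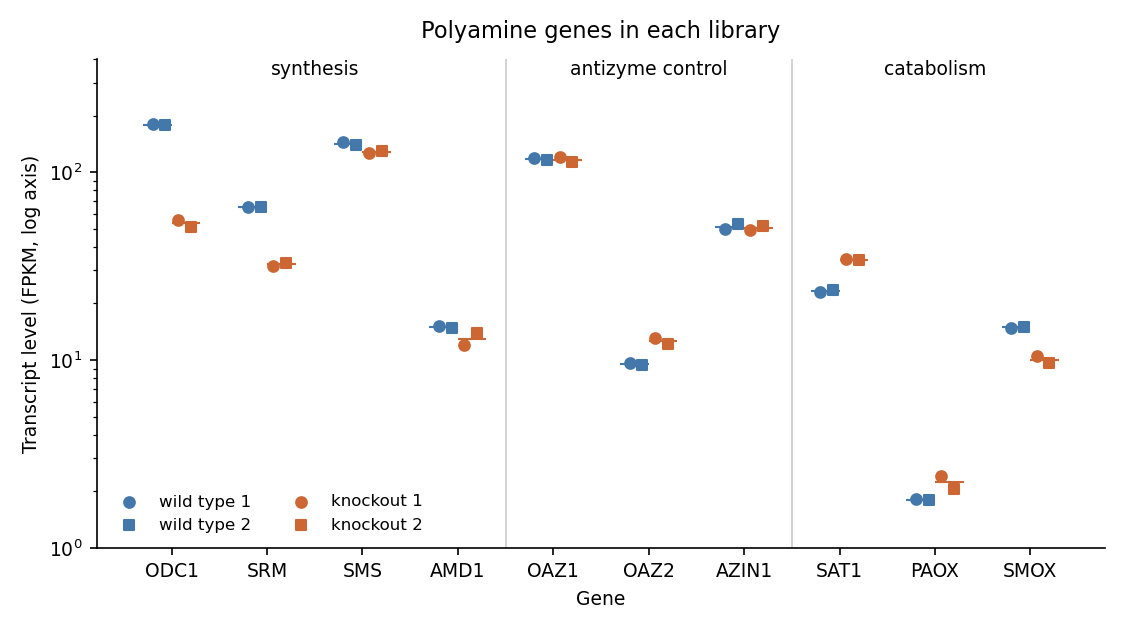
Transcript level of each polyamine gene in the 4 libraries, in FPKM on a log axis, with circles for replicate 1, squares for replicate 2, and a short line for each group's mean. ODC1 drops from 178 and 180 FPKM in wild type to 51.3 and 55.8 FPKM in the knockout, while OAZ1 and AZIN1 overlap between the groups.

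The promoters of ODC1 and SRM, the synthesis genes that fell by at least 2-fold, are shown because both genes are known targets of the transcription factor MYC, which binds the E-box CACGTG. RefSeq sequences on GRCh38.p14 were used for 7 of the 10 genes, at the start site closest to the 5′ end of the gene in the deposited table. Each line is the minus strand, 5′ to 3′, and gives the 250 bases that end just before the start site, with an E-box in capitals: chr2:10448328-10448577 for ODC1 and chr1:11060019-11060268 for SRM.
ODC1: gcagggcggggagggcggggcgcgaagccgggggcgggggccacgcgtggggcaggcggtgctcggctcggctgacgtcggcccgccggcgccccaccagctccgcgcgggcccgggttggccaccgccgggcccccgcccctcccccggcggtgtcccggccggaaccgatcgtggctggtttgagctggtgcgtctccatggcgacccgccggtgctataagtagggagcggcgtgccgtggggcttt
SRM: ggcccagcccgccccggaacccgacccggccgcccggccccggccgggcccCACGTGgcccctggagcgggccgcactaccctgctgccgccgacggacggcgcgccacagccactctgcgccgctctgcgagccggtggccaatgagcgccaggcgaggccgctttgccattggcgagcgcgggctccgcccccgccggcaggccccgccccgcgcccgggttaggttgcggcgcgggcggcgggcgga
The gene models of the deposited table start further upstream than RefSeq, so that the last 177 bases of the ODC1 window and the last 6 of the SRM window lie within them. SRM holds 1 E-box, at 199 to 194 bases before its start, and the ODC1 window holds none. The letters CACGTG occur, on either strand since they read the same on both, in 6.49% of 27305 human promoter windows of this length, 1 for each gene, and in 9.43% of the 8957 that matched a tested gene. None of the windows of SMS, AMD1, OAZ1, OAZ2 and SAT1 contains them. The E-boxes described for ODC1 lie downstream of its start, outside this window. GC boxes (GGGCGG on either strand) were counted 6 times for SRM, 4 times for ODC1, 2 times for OAZ1, once each for SMS, AMD1 and OAZ2 and not for SAT1, and 69.6% of the windows of tested genes hold at least 1. The G and C content was 82.0% for SRM and 78.8% for ODC1, against a median of 65.6% for tested genes. It was 75.2% for OAZ1, 72.8% for SMS, 67.2% each for AMD1 and OAZ2, and 66.4% for SAT1. The background windows for these shares and the median took the first listed start of each gene, not the closest one. They also leave out the chromosome of AZIN1. A match is a description of the letters and not evidence of binding.

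The entry step of the pathway had the largest fall of the 10. ODC1 (ENSG00000115758, hg38 chromosome 2, 10439968 to 10448504, minus strand) was at 180 FPKM in wild-type replicate 1, 178 in wild-type replicate 2, 55.8 in knockout replicate 1 and 51.3 in knockout replicate 2. Both knockout libraries were far below both wild-type libraries, and the gap was many times the difference within either group. The counts behind these values were 13963, 14364, 4615 and 3717. Averaged by group, ODC1 came to 179 ± 1.33 FPKM in wild type and 53.5 ± 3.19 FPKM in the knockout (SD, n = 2 each). The log2 fold change of ODC1 was -1.74 (SE 0.0660), which leaves 30.0% of the wild-type level (95% interval 27.2 to 33.2), with an adjusted p of 1.11e-09 in edgeR's quasi-likelihood test. It ranked 80 among the 3300 genes that fell, by log2 fold change, and 1.44% of tested genes changed by more in size.

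ODC1 lies in a part of chromosome 2 where most tested genes were lower in the knockout, and that is a measured limit on its value. The 25 tested genes on each side of it had a median log2 fold change of -0.64. After removal of that local median the ODC1 difference was -1.09 (SE 0.0651), or 46.9% of wild type in place of 30.0%, at an adjusted p of 5.10e-08 in edgeR's quasi-likelihood test. The median entered that fit as a fixed value, so this SE and adjusted p leave out its own uncertainty. The median was -0.80 with 10 and -0.52 with up to 50 genes on each side. The nearest tested protein-coding genes were HPCAL1, RRM2 and CYS1 on one side, at log2 fold changes of -0.35, -0.80 and -1.08, and NOL10, PDIA6 and PQLC3 on the other, at -1.39, -0.54 and -0.25. All 6 fell. RRM2 encodes a ribonucleotide reductase subunit, and NOL10 a nucleolar protein. NOL10, which starts 0.131 Mb from ODC1, was at 13.6 and 13.2 FPKM in wild type and 5.10 and 5.11 FPKM in the knockout, the change closest in size to that of ODC1 among these 6. Of the 48 other tested genes that start within 10 Mb of ODC1, 36 fell and 3 rose, with a median of -0.68. A single gene of the 48 had a log2 fold change below that of ODC1: the small RNA pseudogene RNU7-113P (-4.07) did not pass the threshold. The number of gene copies in these cells was not measured, and its part in the ODC1 value was not tested.

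**Figure D2:**
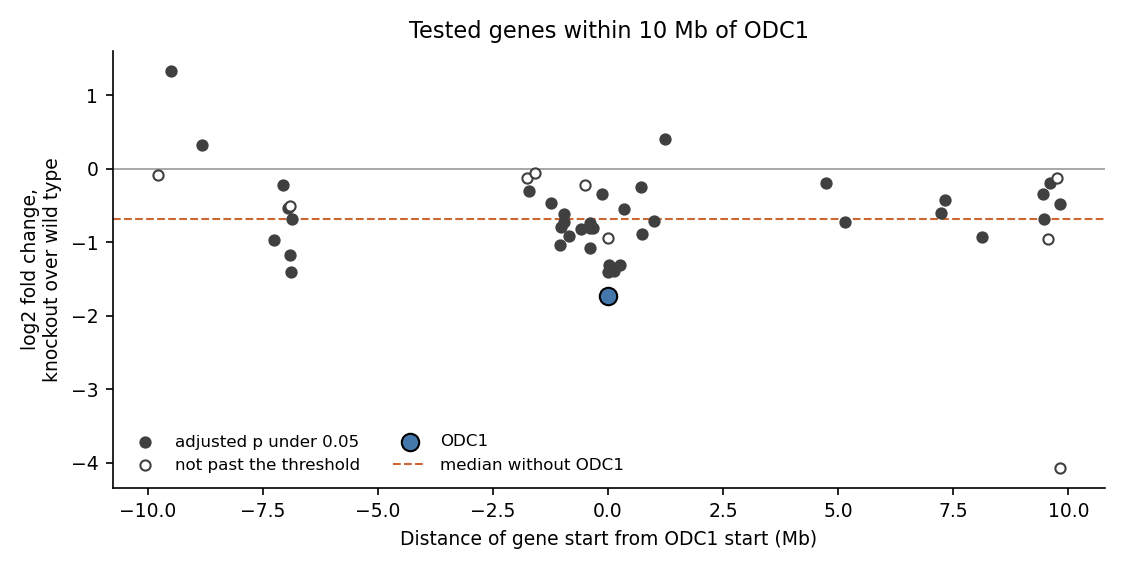
Log2 fold change, knockout over wild type, of the tested genes that start within 10 Mb of ODC1, against distance from the start of ODC1 in Mb, with filled points for an adjusted p under 0.05. Most of the 48 other genes lie below 0, around a median of -0.68 (dashed line), and ODC1 at -1.74 lies below all of them except 1 that did not pass the threshold.

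The second synthesis enzyme with a large fall was spermidine synthase. SRM (ENSG00000116649, chromosome 1, 11054584 to 11060024, minus strand) stood at 64.9 and 65.4 FPKM in the wild-type libraries against 31.6 and 33.0 FPKM in the knockout libraries. The groups were well apart, with means of 65.2 ± 0.386 and 32.3 ± 1.00 FPKM (SD, n = 2 each). Its log2 fold change was -1.01 (SE 0.0633), or 49.7% of the wild-type level (95% interval 45.2 to 54.6), with an adjusted p of 7.24e-08 in edgeR's quasi-likelihood test. Its 25 tested neighbours on each side had a median of 0.00, and removing it left the SRM difference at -1.01. The processed pseudogenes SRMP1 and SRMP2 had at most 2 counts in any library, and ODCP, a pseudogene of ODC1, had 5 to 13.

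The remaining synthesis genes differed little. SMS (ENSG00000102172, chromosome X, 21940573 to 21994835, plus strand) was at 144 and 140 FPKM in wild type and 126 and 130 FPKM in the knockout. The knockout values were both lower, and the ranges were separate, but the difference did not pass the threshold: the log2 fold change was -0.14 (SE 0.0616), a level of 90.4% of wild type with a 95% interval of 82.5 to 99.2, and the adjusted p was 0.0661. AMD1 (ENSG00000123505, chromosome 6, 110874770 to 110895713, plus strand) was at 15.1 and 14.8 FPKM in wild type, 12.0 FPKM in knockout replicate 1 and 14.0 FPKM in knockout replicate 2. The second knockout library thus lay closer to the wild-type libraries than to the other knockout library. AMD1 fell by 0.20 on the log2 scale (SE 0.0756; adjusted p = 0.0387 in edgeR's quasi-likelihood test), but without knockout replicate 1 the difference was -0.09 with an adjusted p of 0.282. The AMD1 call was also lost without wild-type replicate 1 (adjusted p = 0.161), without wild-type replicate 2 (adjusted p = 0.101) and with the local median removed (-0.13, adjusted p = 0.179).

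The authors' deposited table gives the same sign as found here for all 10 genes. In the authors' deposited table SMS is past an adjusted p of 0.05 (0.0495) and AMD1 is not (0.0559), the reverse of the calls above, while the other 8 genes are on the same side. Neither SMS nor AMD1 therefore has a call that holds across these tests.

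SRM and SMS use the same aminopropyl donor on successive substrates, and their balance differed between the groups. The ratio of SMS to SRM, in FPKM, was 2.22 and 2.14 in the wild-type libraries and 3.99 and 3.95 in the knockout libraries. The groups did not overlap, and the mean ratio was 1.82-fold higher in the knockout. The summed FPKM of the 4 synthesis genes was 404 and 398 in wild type against 226 and 229 in the knockout, 0.566 of wild type. In this sum ODC1 is taken without removal of its local median. With 2 libraries against 2, an exact permutation test cannot give p under 0.333, so ratios and sums are given without a test.

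**Figure D3:**
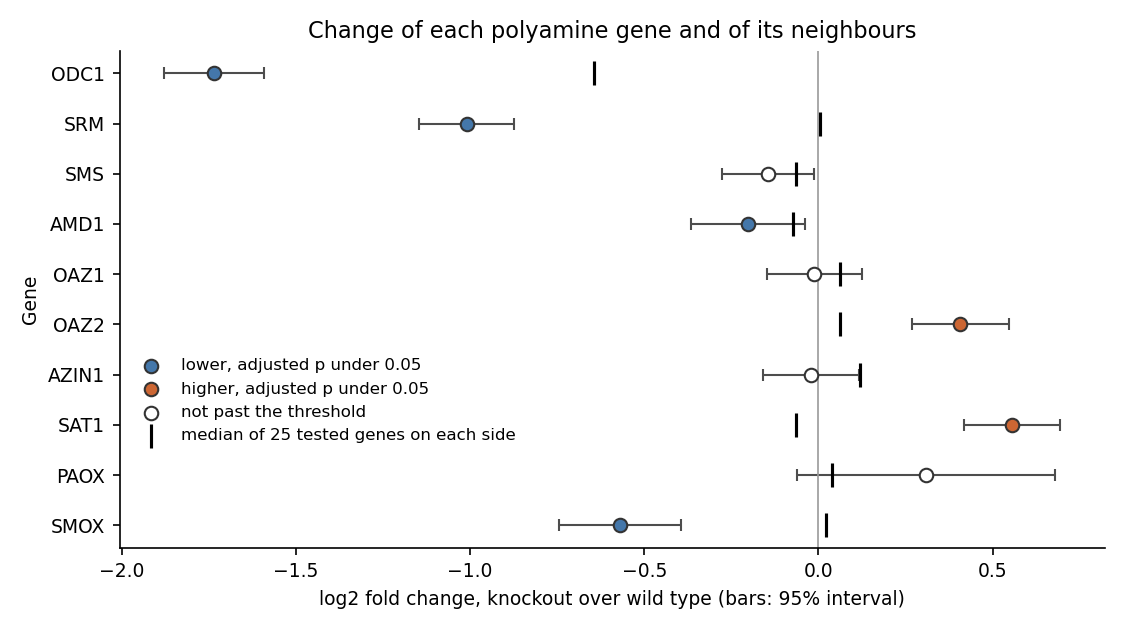
Log2 fold change, knockout over wild type, of each polyamine gene with its 95% interval, and, as a vertical mark, the median log2 fold change of up to 25 tested genes on each side. ODC1 at -1.74 and SRM at -1.01 stand to the left, SAT1 at 0.56 and OAZ2 at 0.41 to the right, and among the 10 the neighbour median of ODC1 (-0.64) is the one farthest from 0.

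Among the regulators of ornithine decarboxylase, OAZ2 rose and OAZ1 and AZIN1 did not pass the threshold. OAZ1, the main antizyme (ENSG00000104904, chromosome 19, 2269509 to 2273490, plus strand), was at 119 and 117 FPKM in wild type and 120 and 113 FPKM in the knockout, with overlapping groups. Its log2 fold change was -0.01 (SE 0.0628), a level of 99.2% of wild type with a 95% interval of 90.3 to 109, and its adjusted p was 0.892. AZIN1 (ENSG00000155096, chromosome 8, 102826357 to 102893864, minus strand) also overlapped between the groups, at 49.8 and 52.8 FPKM in wild type and 49.0 and 51.9 FPKM in the knockout. Its log2 fold change was -0.02 (SE 0.0642; adjusted p = 0.806 in edgeR's quasi-likelihood test), with a 95% interval of 89.5% to 108% of wild type. On a TPM scale, where every library has the same summed count per base of gene length, AZIN1 was called lower (-0.19, adjusted p = 0.0370 in edgeR's quasi-likelihood test). That scale shifts the median of all tested genes by -0.17 and puts 26.6% of all calls above 0, against 49.9% here, so that AZIN1 stood near that shifted median.

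OAZ2 (ENSG00000180304, chromosome 15, 64687573 to 64703281, minus strand), a less abundant antizyme, was at 9.60 and 9.41 FPKM in wild type and 13.1 and 12.1 FPKM in the knockout. Both knockout libraries were above both wild-type libraries. OAZ2 rose by a log2 fold change of 0.41 (SE 0.0648), or 1.33-fold (95% interval 1.20 to 1.46), with an adjusted p of 0.000179 in edgeR's quasi-likelihood test. Since OAZ1 was far more abundant per length, the summed FPKM of OAZ1, OAZ2 and AZIN1 was 178 and 179 in wild type and 182 and 177 in the knockout. Exonic bases of OAZ1, OAZ2 and AZIN1 are shared with genes on the opposite strand for 6.87%, 7.22% and 5.35% of their length, but those genes (JSRP1, AC100830.3 and AZIN1-AS1) had at most 47 counts in a library.

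The ratio of antizyme to ornithine decarboxylase transcripts differed clearly, from the side of ODC1. The local median around ODC1 (-0.64) was not removed in these ratios. With it removed, ODC1 was at 46.9% of wild type in place of 30.0%. OAZ1 and OAZ2 together were at 0.714 and 0.710 of the ODC1 level in wild type and at 2.38 and 2.44 of it in the knockout. In FPKM the antizymes were thus below ODC1 in both wild-type libraries and above it in both knockout libraries, a 3.39-fold higher mean ratio. FPKM divides by the length of all annotated exons (3436 bases for OAZ1, 7671 for OAZ2 and 2968 for ODC1). The lengths of the transcripts expressed here were not measured, so whether antizyme or ODC1 transcripts were more numerous in either group cannot be told. AZIN1 relative to the summed antizymes was 0.388 and 0.418 in wild type and 0.368 and 0.415 in the knockout, where the groups overlapped. AMD1 relative to ODC1 was 0.0841 and 0.0835 in wild type and 0.215 and 0.272 in the knockout, a 2.91-fold higher mean ratio.

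**Figure D4:**
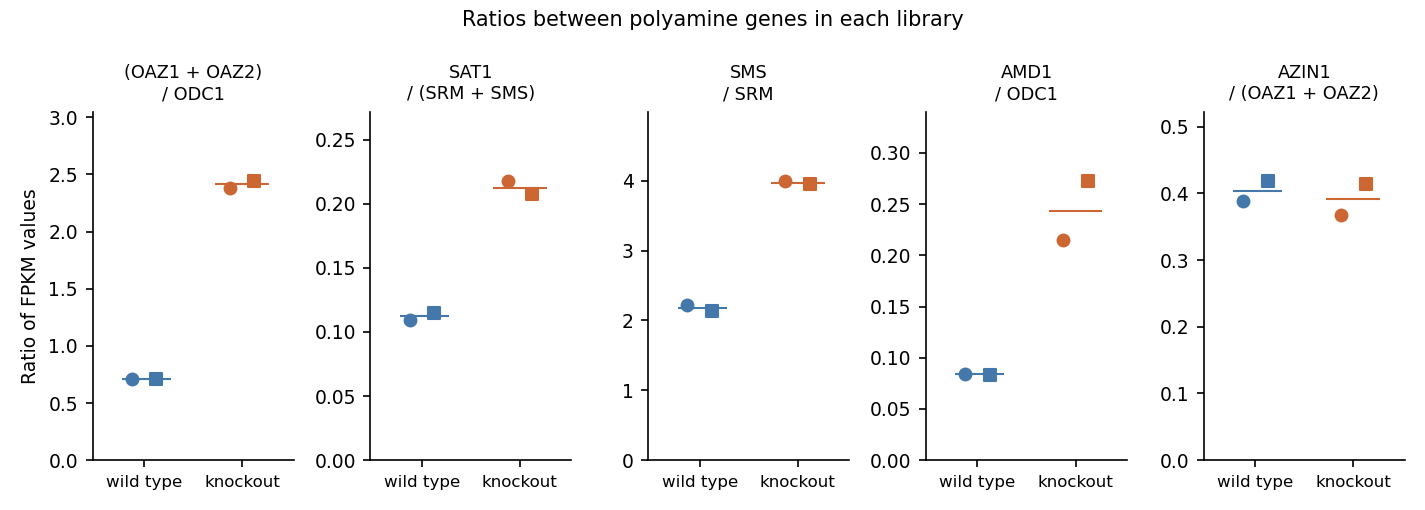
FPKM ratios between polyamine genes in each library, with circles for replicate 1, squares for replicate 2 and lines for group means. The ratio of OAZ1 + OAZ2 to ODC1 goes from about 0.71 in wild type to 2.38 and 2.44 in the knockout, while AZIN1 over OAZ1 + OAZ2 overlaps between the groups.

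The catabolic genes moved in different directions. SAT1 (ENSG00000130066, chromosome X, 23783173 to 23786226, plus strand), the acetyltransferase that starts spermidine and spermine breakdown, was at 22.9 and 23.6 FPKM in wild type and 34.3 and 33.9 FPKM in the knockout. Both knockout libraries lay above both wild-type libraries and close to each other. SAT1 rose by a log2 fold change of 0.56 (SE 0.0639), or 1.47-fold (95% interval 1.34 to 1.62), with an adjusted p of 1.25e-05 in edgeR's quasi-likelihood test. SMS lies near SAT1 on the same arm of chromosome X, and the medians of the neighbours were -0.06 for each. The ratio of SAT1 to the summed synthases SRM and SMS was 0.110 and 0.115 in wild type and 0.218 and 0.208 in the knockout, 1.89-fold higher on average.

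SMOX (ENSG00000088826, chromosome 20, 4120980 to 4187747, plus strand), spermine oxidase, was at 14.8 and 15.0 FPKM in wild type and 10.5 and 9.62 FPKM in the knockout. The groups were separate, with the knockout libraries at 67.4% of wild type (95% interval 59.7 to 76.1). SMOX fell by 0.57 on the log2 scale (SE 0.0809; adjusted p = 7.35e-05 in edgeR's quasi-likelihood test). PAOX (ENSG00000148832, chromosome 10, 133379234 to 133391694, plus strand), the peroxisomal oxidase of acetylated polyamines, was the least abundant of the 10. It was at 1.83 and 1.79 FPKM in wild type and 2.41 and 2.05 FPKM in the knockout, from 109, 111, 153 and 114 counts. The values did not overlap, but its log2 fold change of 0.31 (SE 0.171) did not pass (adjusted p = 0.152 in edgeR's quasi-likelihood test), and the 95% interval ran from 0.958-fold to 1.60-fold.

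The order of the 10 levels per gene length also differed between the groups. These lengths count all annotated exonic bases, from 1898 for SRM to 7671 for OAZ2, so the order need not be that of transcript numbers. In wild type ODC1 led at 179 FPKM, followed by SMS (142), OAZ1 (118), SRM (65.2), AZIN1 (51.3), SAT1 (23.3), AMD1 (15.0), SMOX (14.9), OAZ2 (9.51) and PAOX (1.81). AMD1 and SMOX, neighbours in that order, overlapped. ODC1 was above 98.8% of all tested genes in wild type, SMS above 98.3% and OAZ1 above 97.8%, whereas PAOX was above 18.2%. In the knockout SMS led at 128 FPKM, followed by OAZ1 (117), ODC1 (53.5), AZIN1 (50.4), SAT1 (34.1), SRM (32.3), AMD1 (13.0), OAZ2 (12.6), SMOX (10.0) and PAOX (2.23). There the values of ODC1 and AZIN1 overlapped, as did those of AMD1 and OAZ2, and SAT1 stood just above SRM in both libraries.

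The profile of ODC1 over the 4 libraries was set beside those of the 7171 other genes that averaged 5 FPKM or more, by the root mean square distance of log2 CPM centred on each gene's mean. Among the 5 closest were the uridine phosphorylase gene UPP1 on chromosome 7 (distance 0.0762), EMG1, an enzyme gene of ribosome biogenesis on chromosome 12 (0.110), G0S2 on chromosome 1 (0.126) and the Mediator subunit gene MED10 on chromosome 5 (0.150). UPP1 was at 29.1 and 29.7 FPKM in wild type and 8.12 and 8.36 FPKM in the knockout. With 4 libraries in 2 groups, this distance mostly measures how close the size of the difference is to that of ODC1.

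Around these enzymes, 49 further genes of supply, transport and use of polyamines were listed, of which 34 were tested. Of the 34, 11 rose, 12 fell and 11 did not pass, and their median was -0.14 on the log2 scale. The share called was 67.6%, against 50.3% of all tested genes, and on the TPM scale 7 were called higher and 19 lower. Hypusination is the modification of the translation factor eIF5A that takes its aminobutyl group from spermidine. All 3 tested genes of that list fell, where 25.2% of all tested genes did. DHPS, the other gene listed and the deoxyhypusine synthase that acts before DOHH, did not pass the filter and had higher values in the knockout, at 0.584 and 0.513 FPKM in wild type and 0.979 and 0.926 FPKM in the knockout, from 46, 42, 82 and 68 counts. The gene AC010422.8 on the same strand shares 38.5% of the exonic bases of DHPS and had 43 to 63 counts in a library, and its part in the DHPS value was not tested. EIF5A itself was at 240 and 234 FPKM in wild type and 138 and 120 FPKM in the knockout, a log2 fold change of -0.88 (SE 0.0736; adjusted p = 8.68e-07 in edgeR's quasi-likelihood test). Its near-identical copy EIF5AL1 can share reads and had 543, 597, 357 and 374 counts, and 8.56% of EIF5A exonic bases are shared with GPS2 on the opposite strand. DOHH, the hydroxylase that completes hypusine, was at 22.2 and 21.4 FPKM in wild type and 14.3 and 13.3 FPKM in the knockout (log2 fold change -0.65). EIF5A2 was at -0.26, close to the threshold (adjusted p = 0.0413 in edgeR's quasi-likelihood test), or -0.48 with the local median removed.

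**Figure D5:**
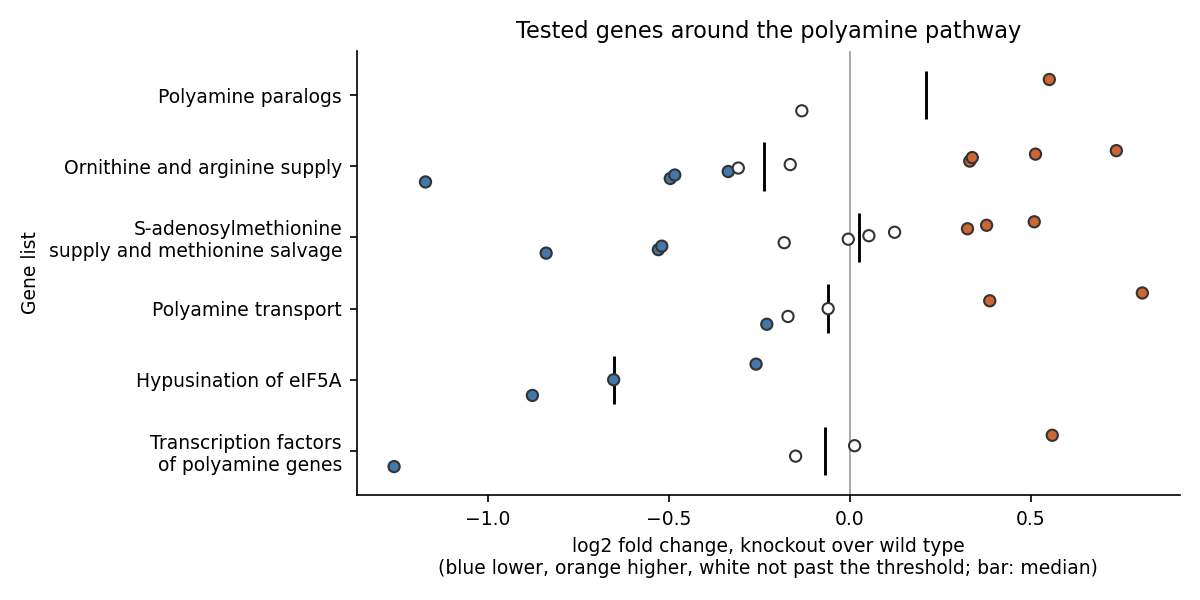
Log2 fold change, knockout over wild type, of the 34 tested genes on 6 lists around the polyamine pathway, with a bar at each list's median and colour for an adjusted p under 0.05. The 3 tested hypusination genes lie below 0, and the other lists spread to both sides.

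Among 10 tested genes of ornithine and arginine supply, 4 rose, 4 fell and 2 did not pass (median -0.24). PYCR1, which makes proline from the intermediate that also leads to ornithine, was at 52.9 and 55.4 FPKM in wild type and 25.6 and 22.3 FPKM in the knockout (log2 fold change -1.17, SE 0.0719). It shares 14.1% of its exonic bases with MYADML2, which had at most 20 counts in a library. ASL, the urea cycle enzyme that releases arginine, was at -0.50, and the mitochondrial arginase ARG2, which makes ornithine, rose by a log2 fold change of 0.74 from 3.51 to 5.83 FPKM on average. The ARG2 exons share 37.4% of their bases with VTI1B on the opposite strand, and as no source states whether counting used the strand, reads there cannot be told apart.

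Of 10 tested genes of S-adenosylmethionine supply and methionine salvage, 3 rose, 3 fell and 4 did not pass (median 0.02). MAT2A, the catalytic subunit of S-adenosylmethionine synthetase, was at 49.6 and 48.7 FPKM in wild type and 67.4 and 72.2 FPKM in the knockout (log2 fold change 0.51, SE 0.0639), with 12.4% of its exonic bases shared with GGCX on the opposite strand. MTRR, which reactivates methionine synthase, was at -0.84, and -0.29 with the local median removed. ADI1, a dioxygenase of methionine salvage, was at -0.53. It lies near the end of chromosome 2, where the window of neighbours stops. After removal of the local median (-0.79) its value was 0.27 (adjusted p = 0.00809 in edgeR's quasi-likelihood test), the opposite direction. The local median of ADI1 was -0.49 with 10 and -0.68 with up to 50 genes on each side. The 10-gene median is smaller in size than the fall of ADI1, so the reversed direction does not hold with that window.

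Of 5 tested transport genes 2 rose, 1 fell and 2 did not pass. SLC47A1, an organic cation exporter, was at 2.16 and 2.04 FPKM in wild type and 3.69 and 3.64 FPKM in the knockout (log2 fold change 0.81, SE 0.1003). SLC18B1, a vesicular polyamine transporter, rose by a log2 fold change of 0.39 and SLC3A2 fell by 0.23 on the log2 scale. The lysosomal polyamine exporter ATP13A2 was at -0.17 and ATP13A3 at -0.06, neither past the threshold. With the local median removed both were called lower, ATP13A2 at -0.19 (adjusted p = 0.0473 in edgeR's quasi-likelihood test) and ATP13A3 at -0.28 (adjusted p = 0.00635). The local median of ATP13A3 was 0.22 in that window but 0.06 with 10 genes on each side, so the -0.28 depends on the window. Of the 2 tested paralogs, AZIN2 rose (log2 fold change 0.55, SE 0.145, from 183, 237, 352 and 251 counts), and SAT2 was at -0.13, not past the threshold.

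Of 4 tested transcription factors known to act on polyamine genes, 1 rose, 1 fell and 2 did not pass. MYC, an activator of ODC1 and SRM, was at 108 and 112 FPKM in wild type and 44.4 and 47.5 FPKM in the knockout, 41.8% of wild type (log2 fold change -1.26, SE 0.0644; adjusted p = 1.10e-08 in edgeR's quasi-likelihood test). Without removal of local medians it thus fell by an amount between those of SRM and ODC1. With them removed MYC was at -1.38, ODC1 at -1.09 and SRM at -1.01, so MYC fell by more than both. The part of MYC in the ODC1 and SRM values was not tested. Its partner MAX was at -0.15 and NFE2L2, an activator of SAT1, at 0.01, neither past the threshold. With the local median removed NFE2L2 was called lower, at -0.31 (adjusted p = 0.00233 in edgeR's quasi-likelihood test). SP1, which binds GC boxes, rose by a log2 fold change of 0.56, or 0.23 with the local median removed.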

How the data were processed

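Total RNA of H1299 cells was sequenced in 4 libraries, 2 wild type and 2 TTC28 knockout, grouped and numbered from the labels. The submitters' processing notes name HISAT2 2.0.5 and the build hg38. The counting tool, its use of strand and the gene annotation were not given in the sources used here. Per the file headers, the authors deposited raw counts and, made from them with the gene lengths, FPKM values. The authors' deposited log2 fold changes, p-values and adjusted p-values come from a test that the headers do not name. Their group means of scaled signal were deposited too and not used.

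A gene was tested if 2 or more libraries had 1 FPKM or more, on the deposited counts, with edgeR 4.0.16 under R 4.3.3 (TMM factors, quasi-likelihood test, two-sided, no covariates), with Benjamini-Hochberg adjustment over all 13079 and a threshold of 0.05. Standard errors and 95% intervals come from that fit. Exon overlaps used GENCODE release 29, where all 10 genes have the coordinates of the table. The local median of a gene is that of the 25 tested genes on each side, or fewer where the chromosome ends sooner. It was removed as a fixed offset in the knockout libraries, so standard errors and p-values after removal leave out its own uncertainty. Named genes were the 10, TTC28, MYC, up to 3 genes with the smallest p past the threshold of each other list, and for ODC1 the 3 nearest tested protein-coding genes on each side and the 5 with the closest profile. MAX, NFE2L2, ATP13A2, ATP13A3, SAT2 and RNU7-113P were named after their values were seen. DHPS and OAZ3, listed but under the filter, were also named outside these rules. Of the genes that these rules name, 1 listed gene and 1 with a profile close to ODC1 are not reported here, and the first was left out of the counts of its list. The members and lists were chosen with earlier results of these data known. Alternatives were other filters and scalings, DESeq2 1.42.0, limma 3.58.1 on log2 FPKM with pseudocounts of 1 or 0.1, protein-coding genes only, a replicate block and leaving out each library. The fits were tested on simulated data.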

Additional observations from a re-analysis of the deposited data

How the results depend on the processing

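Over 16 alternatives to the main test, ODC1, SRM, SMOX, SAT1 and OAZ2 kept their direction and stayed past the threshold, with log2 fold changes from -1.90 to -1.09 for ODC1, -1.18 to -0.97 for SRM, -0.74 to -0.52 for SMOX, 0.39 to 0.62 for SAT1 and 0.24 to 0.45 for OAZ2. The count of polyamine genes that rose was 2 in each of the 16, and the count that fell ran from 3 to 6 (3 to 5 when 1 library was left out, 6 on the TPM scale). SMS, AMD1 and AZIN1 were the genes whose call changed. AMD1 was not called in 8 of the 16, among them DESeq2 (adjusted p = 0.0611) and limma on log2(FPKM + 1) (adjusted p = 0.103), and SMS was called in 5, among them the replicate block (-0.14, adjusted p = 0.0431), total-count scaling (-0.21, adjusted p = 0.0116) and without knockout replicate 2 (-0.17, adjusted p = 0.0435). For the 49 genes around the pathway the counts were 11 higher and 12 lower in the main test and 7 and 19 on the TPM scale. When 1 library was left out they ran from 9 to 11 higher and 10 to 13 lower. The knockout-to-wild-type ratio of AMD1 over ODC1 ran from 2.57 to 3.25 when 1 library was left out, and that of antizymes over ODC1 from 3.35 to 3.43. The neighbour median of ODC1 was -0.80 with 10 and -0.52 with up to 50 genes on each side, and -0.69 to -0.59 when 1 library was left out. Only the 25-gene median (-0.64) was removed in a fit, so the range given for ODC1 does not cover the larger 10-gene median. Leaving out a library, and the neighbour medians and ratios without it, assume that the lone library of a group varies like the others; for the neighbour medians and ratios this was chosen after seeing the data. Equal replicate numbers did not deviate together (correlation -0.02 across genes), and the block changed no call of the other 9 polyamine genes. The cause of the changed calls was not tested. The TPM scale sets summed FPKM equal, and that sum was 301778.0 and 298028.8 in wild type and 332752.0 and 339219.5 in the knockout. In these data that scale shifted the median of all tested genes by -0.17. Precision was lowest for PAOX, with 109 to 153 counts a library.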

Other observations

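The antizyme OAZ3 was under the filter on low values, at 0.263 to 0.453 FPKM in the 4 libraries.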
